A study of Mus musculus with 8 samples.

Results

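CpG island shelves are the stretches of DNA that begin past the shores of a CpG island, and they were followed here in mouse liver at HpaII sites lying more than 2000 and up to 4000 bp from the nearest CpG-rich core. A core site had at least 5 other listed HpaII sites within 500 bp. Shelf sites had fewer than 5, lay on an autosome, were listed for all 8 livers and had at least 10 tags in the MspI reference. These criteria use position and the MspI reference and set no limit on the HpaII signal. Neighbours and cores were counted over sites listed for any liver, of which 1310003 were listed for all 8. What decides the listing of a site, the HpaII signal included, was not tested. They left 32990 shelf sites, 3.66% of the 901207 autosomal sites with the same coverage and 2.50% of all 1320570 listed sites. Another 11703 sites in the same distance band had fewer than 10 MspI tags and were left out.

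The livers came from C57BL/6J mice on a high-fat diet with lingonberries (n = 4) or on the high-fat diet alone (HFD, n = 4), so every animal had the high-fat diet and a low-fat group is not part of the comparison. The series' design gives the number of mice per group, and the labels give no age, sex, batch or pairing of animals. The question was whether the berry supplement altered hepatic methylation. Methylation was measured by HELP-tagging in bulk liver DNA, where a change in the mix of cell types and a change within cells cannot be told apart. The tissue label was not checked against marker genes, since an mm9 gene annotation was not used here.

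In mammals most CpGs are methylated, and CpG islands, which often hold promoters, are the main exception. Methylation usually rises through the shore that borders an island and approaches the level of the surrounding genome in the shelf. Shores have been described as places where methylation differs between tissues, and shelves as closer to the CpG-poor open sea. HELP-tagging sees this through a pair of enzymes that recognise CCGG. HpaII cuts only when the central CpG is unmethylated, while MspI cuts in either case. The m-score of a site compares the 2 tag numbers and runs from 0, with no HpaII tag, at the methylated end to 100, with no MspI tag, at the unmethylated end. A single MspI reference served every file after scaling to its library, so scores rank sites within a liver, and a lower score means more methylation relative to the rest of that liver.

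The libraries held 16076961, 9974503, 6121989 and 10215066 HpaII tags in lingonberry livers, and 7036766, 6530093, 5877080 and 7428108 in HFD livers. The deepest libraries were thus in the lingonberry group. Shelf sites received between 1 and 3 tags at the median per liver. At a shelf site with the median of 24 MspI tags, 1 HpaII tag is worth 4.89 m-score units in the deepest library (lingonberry 1) and 13.3 in the shallowest (HFD 3). Single shelf sites are therefore measured coarsely. Averages over many sites carry less of this coarseness, but they keep differences in tag yield between libraries. Across shelf sites, the m-scores of pairs of livers had a Pearson r of 0.814 to 0.865 for pairs of lingonberry livers. For pairs of HFD livers it was 0.8095 to 0.830 and across diets 0.790 to 0.849, as a description over sites that share libraries.

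Liver shelves were mostly methylated. The mean m-score of a shelf site over the 8 livers was below 25 at 19905 sites (60.3%), between 25 and 75 at 10769 (32.6%) and 75 or above at 2316 (7.02%). The median site had 16.3, with quartiles of 4.64 and 44.5. No HpaII tag was found in any liver at 2479 shelf sites, and 12897 had at least 1 tag in all 8 livers. Shores held a larger share of unmethylated sites, 20.03%, and a smaller share below 25, 37.0%. In the open sea, more than 4000 bp from a core, these shares were 3.85% and 69.7%.

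**Figure D1:**
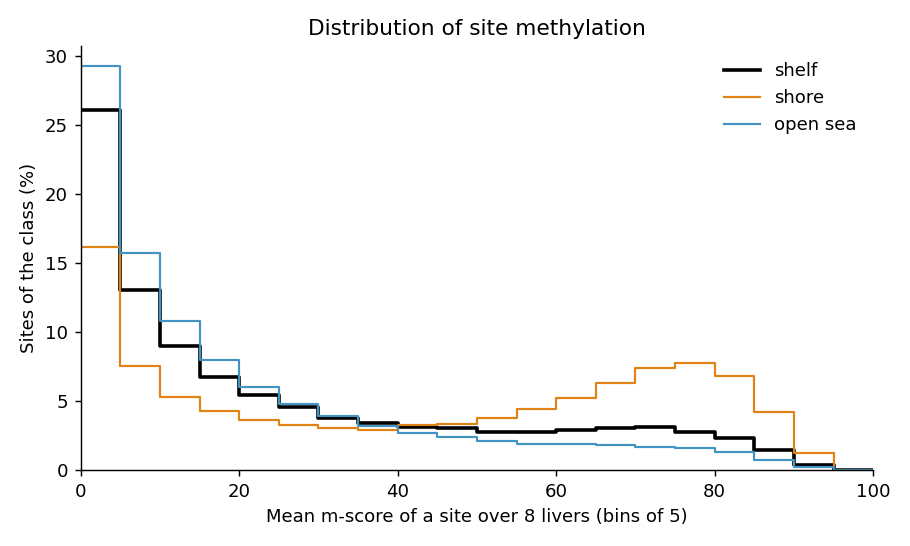
Share of sites (%) by mean m-score over the 8 livers in bins of 5, for shelf sites (black), shore sites (orange) and open sea sites (blue). The first bin, under 5, holds 26.1% of shelf sites, 16.2% of shore sites and 29.2% of open sea sites, and the shore distribution has a further mode at 75 to 80.

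The shelf lay between shore and open sea in every liver. Its mean m-score was 26.5 over the 8 livers, against 42.9 in the shore, 20.8 in the open sea and 69.1 at the core sites themselves. Within a liver the shelf minus shore difference was -16.45 ± 0.44 units (SD, n = 8 livers, range -17.2 to -15.7) and the shelf minus open sea difference 5.64 ± 0.68 (SD, n = 8, range 4.895 to 7.10). Sites in the shelf have fewer close neighbours than in the shore and more than in the open sea, with means of 1.25, 2.26 and 0.88 other sites within 500 bp. When shore and open sea were given the shelf's mix of neighbour numbers, the differences were -10.7 ± 0.24 from the shore and 4.455 ± 0.53 from the open sea (SD, n = 8). Each of these 4 differences had 1 sign in 8 of 8 livers (two-sided exact permutation test over the signs of the within-liver differences, p = 0.00781, the smallest that 8 livers allow, adjusted p = 0.00846 over 13 within-liver comparisons). All livers were scored at the same sites against 1 MspI reference. The p therefore covers the spread between livers and not between sites or clusters, here and in the other within-liver comparisons. All 13 were added after seeing the data. With cores of at least 10 neighbours the shelf minus open sea difference was 9.50, and 7.92 with the same mix.

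The level fell steeply through the shore and by far less through the shelf. The mean of the 8 livers was 54.2 in the first 250 bp from a core and 28.1 in the last 250 bp of the shore. In the first 250 bp of the shelf it was 27.8, and in its last 250 bp 25.6. Farther out it was 24.7 in the next 250 bp, 22.7 between 10000 and 20000 bp and 19.3 beyond 50000 bp. The inner 500 bp of the shelf exceeded its outer 500 bp by 1.28 ± 0.18 units (SD, n = 8), in 8 of 8 livers (exact permutation test, adjusted p = 0.00846), and by 1.22 ± 0.17 with the same mix of neighbour numbers. With a minimum of 50 MspI tags this difference was 5.58, and with cores of at least 10 neighbours 4.64, so its size depends on the criteria. At the distance limits the values on either side were near each other. Sites within 50 bp inside the inner edge had 28.8 and those within 50 bp outside it 28.6. At the outer edge the values were 26.4 inside and 25.2 outside. At the density limit, shelf sites with 4 neighbours had 39.8, against 56.5 at all sites with 5, which are core sites by definition. Shore sites with 4 neighbours had 51.9, so location differs across this limit as well as density. Sites with 10 MspI tags had 25.5, against 26.5 at those with 9.

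**Figure D2:**
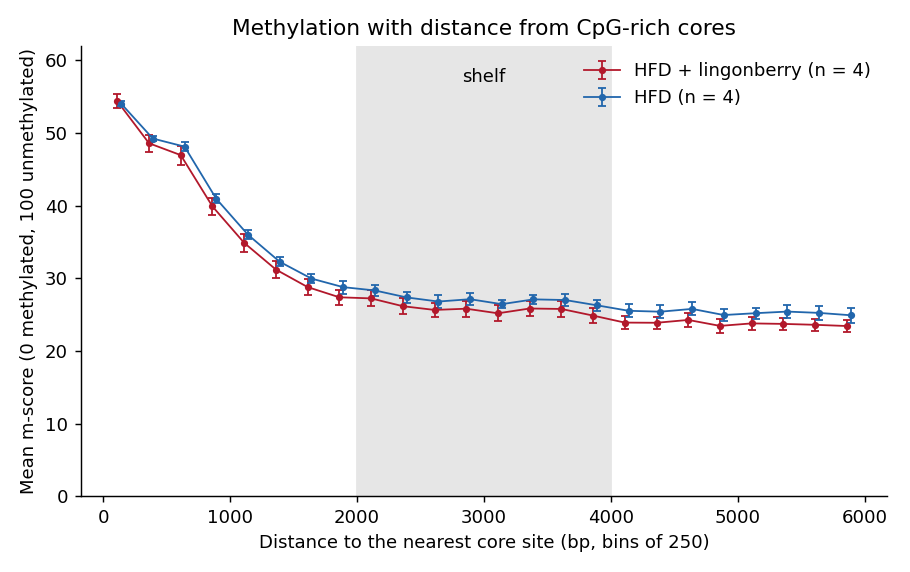
Mean m-score of sites with fewer than 5 neighbours against distance to the nearest core site (bp, bins of 250), for lingonberry livers (red) and HFD livers (blue), with points at the mean of 4 livers, bars of 1 SD and the shelf shaded. Both lines fall from about 54 beside the core and run nearly flat through the shelf, where lingonberry livers lie about 1 unit below HFD livers with overlapping bars.

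The state of the nearest CpG-rich cluster went with the level of its shelf. Clusters are runs of core sites no more than 500 bp apart, and 12098 of them were nearest to at least 1 shelf site. No map of CpG islands was used here, so a cluster stands in for an island, and part of the clusters were methylated. Of the shelf sites, 11286 flanked an unmethylated cluster (m-score 75 or above), 15654 an intermediate one and 5488 a methylated one (under 25), while 562 flanked a cluster with no usable site. Within livers, shelves of unmethylated clusters exceeded those of methylated clusters by 7.29 ± 0.35 units (SD, n = 8, higher in 8 of 8 livers, exact permutation test, adjusted p = 0.00846), and by 7.55 ± 0.34 with the same mix of neighbour numbers. With cores of at least 10 neighbours these were 12.3 and 12.2. Shelves of methylated clusters minus open sea gave a difference of -0.055 ± 0.64 and a higher value in 4 of 8 livers (exact permutation test, adjusted p = 0.867). With the open sea given their mix of neighbour numbers the difference was -1.74 ± 0.39 units (SD, n = 8, lower in 8 of 8, exact permutation test, adjusted p = 0.00846). That difference was -0.73 with a minimum of 1 MspI tag and -3.88 with cores of at least 10 neighbours. The unweighted difference depended on the criteria. It was 0.72 with a minimum of 1 MspI tag, -0.58 with 50 tags and -2.32 with cores of at least 10 neighbours, each past the exact permutation test on its adjusted p (0.0156, 0.03125 and 0.00781).

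**Figure D3:**
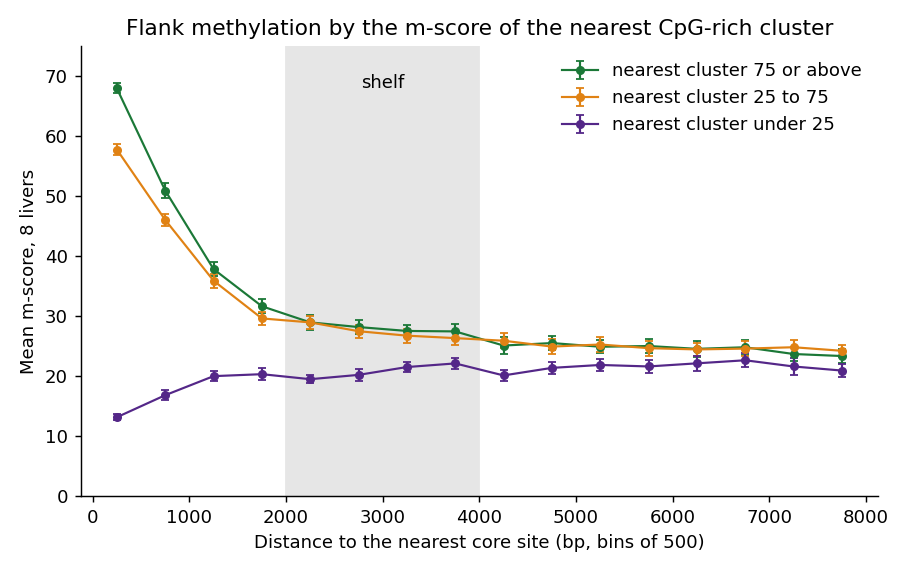
Mean m-score over the 8 livers against distance to the nearest core site (bp, bins of 500), with sites divided by the mean m-score of the nearest cluster (75 or above in green, 25 to 75 in orange, under 25 in purple), bars of 1 SD over livers and the shelf shaded. Around unmethylated clusters the level drops from 67.9 in the first 500 bp to 27.5 in the last 500 bp of the shelf, and around methylated clusters it climbs from 13.2 to 22.1.

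The profiles approached their shelf level from opposite sides. Beside unmethylated clusters the mean over livers was 67.9 in the first 500 bp, 31.6 in the last 500 bp of the shore and 28.96 in the first 500 bp of the shelf. Beside methylated clusters it was 13.2, 20.3 and 19.5 over the same bins, and 22.1 in the last 500 bp of the shelf. In the 500 bp up to 8000 bp from the core the values were 23.4 beside unmethylated and 20.9 beside methylated clusters. Larger clusters had less methylated shelves, as a description without a test. Next to clusters of 1 to 4 core sites the mean was 25.3 (8970 shelf sites), next to 5 to 9 it was 25.95, next to 10 to 19 it was 27.1, and next to 20 or more it was 31.3 (2312 shelf sites). The 1039 shelf sites with a core within 4000 bp on both sides had 5.00 ± 0.45 units more than those with a core on 1 side (SD, n = 8, higher in 8 of 8 livers, exact permutation test, adjusted p = 0.00846), and 3.53 ± 0.30 more with the same mix of neighbour numbers. With cores of at least 10 neighbours these were 12.2 and 6.03. The sides of a cluster were close, with means of 26.7 toward lower and 26.3 toward higher coordinates.

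Local crowding went with a higher score inside the shelf as well. Within livers, shelf sites with no other site within 500 bp minus those with 2 to 4 gave -8.56 ± 1.37 units (SD, n = 8, lower in 8 of 8 livers, exact permutation test, adjusted p = 0.00846), and -14.8 with cores of at least 10 neighbours. Of the 2316 unmethylated shelf sites, 61.9% had 2 to 4 neighbours and 13.2% had none, against 32.5% and 33.9% of the 19905 methylated ones. Median distance to the core hardly separated these sets, at 2943 and 2969 bp, nor did median MspI tags, at 23 and 24. The nearest cluster was unmethylated for 40.1% of the unmethylated and 32.9% of the methylated shelf sites. At 2.36% of shelf sites the recovered HpaII tags of some liver were not whole within 0.02. Such values were taken as tags shared between several sites, and whether they mark repeated sequence was not tested.

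Neighbouring shelf sites resembled each other over short distances. Successive shelf sites 51 to 100 bp apart had a Pearson r of 0.863 in their mean m-score (2131 pairs), those more than 250 and up to 500 bp apart 0.533 (3551 pairs) and those more than 1000 and up to 2000 bp apart 0.166 (1822 pairs), as a description across sites of the same 8 livers. Where an unmethylated shelf site had another covered site within 250 bp, that site was itself unmethylated in 50.4% of 1651 cases and methylated in 2.60%. For methylated shelf sites the shares were 0.575% and 85.3% of 8180 cases. For shelf sites more than 500 and up to 1000 bp apart the r was 0.2955 (3271 pairs). Across a cluster, with each shelf, shore or core taken as a whole, the coefficients were below those of single sites up to 500 bp apart. The shelves on the opposite sides of a cluster had an r of 0.232 (414 clusters with at least 3 sites on each side), a shelf and its shore 0.323 (3969 clusters) and a shelf and its core 0.161 (5188 clusters). Nearby shelf sites were thus alike over short distances. The opposite shelves of a cluster, at 0.232, had a coefficient above the 0.166 of single sites more than 1000 and up to 2000 bp apart, though the measures differ. Whether the cluster itself lowers likeness beyond distance was not tested.

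Such stretches are seen in shelf units, the shelf sites on 1 side of 1 cluster. There were 4198 units of at least 3 sites, of which 159 (3.79%) were unmethylated on average, 42.9% intermediate and 53.3% methylated. Among units of at least 5 sites, the highest was on chromosome 13 from 40836338 to 40837460 (mm9, 7 sites). It had 86.9, 86.9, 87.5 and 88.5 in lingonberry livers, against 83.9, 86.7, 83.7 and 86.7 in HFD livers. All 8 livers were unmethylated over this stretch, which lay beside a cluster of 72.7. The next, on chromosome 5 from 98610393 to 98612204 (6 sites), had 81.9, 81.6, 82.4 and 81.6 in lingonberry livers, against 79.7, 82.3, 80.3 and 79.8 in HFD livers. In the chromosome 13 unit all lingonberry livers lay above all HFD livers, with a difference of 2.20 ± 1.10 (SE, limma, adjusted p = 0.633), and in the chromosome 5 unit the groups overlapped. The next 3, on chromosomes 2, 8 and 17, had means over livers of 80.7, 80.5 and 80.03.

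At the other end, the lowest unit of at least 5 sites lay on chromosome 1 from 58564344 to 58565991, beside an intermediate cluster with a mean m-score of 73.9, and had an m-score above 0 in 1 liver only (1.38 in lingonberry 1). The unit on chromosome 4 from 43594422 to 43595096 flanked a cluster of 76.7 and had 1.02, 0, 0 and 2.60 in lingonberry livers, against 0 in all HFD livers. A strongly methylated shelf thus stood next to an unmethylated cluster in this case. The 3 others of the lowest 5, on chromosomes 7 and 11, had means over livers of 0.45, 0.27 and 0.66. The chromosome 7 unit also flanked an unmethylated cluster, with 75.2, and those on chromosome 11 flanked clusters of 7.59 and 25.4. Units with most shelf sites were not alike. On chromosome 11 from 96172048 to 96173889 (9 sites) the level was 70.3, 69.5, 72.02 and 70.8 in lingonberry livers, against 71.3, 68.3, 69.2 and 69.8 in HFD livers. On chromosome 1 from 75547102 to 75548840 (8 sites), beside a cluster with an m-score of 0, it was 3.03, 2.04, 3.53 and 2.40 in lingonberry livers, against 1.55, 9.62, 5.46 and 9.33 in HFD livers. The remaining 3, with 9 sites each, had 56.4 on chromosome 10, 20.3 on chromosome 8 and 71.9 on chromosome 9.

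The diets did not differ past the threshold over the shelf as a whole. The mean m-score was 25.6, 24.6, 26.1 and 27.1 in lingonberry livers, against 26.3, 27.2, 28.03 and 26.8 in HFD livers. The groups overlapped, as lingonberry liver 4 lay above HFD livers 1 and 4. Lingonberry livers averaged 25.9 ± 1.05 and HFD livers 27.1 ± 0.74 (SD, n = 4 each), which gives -1.24 ± 0.64 (SE, two-sided exact permutation test, p = 0.114, adjusted p = 0.171 over 6 measures of the whole shelf). The median was 15.01 ± 1.33 and 17.5 ± 1.32, a difference of -2.44 (exact permutation test, p = 0.0571, adjusted p = 0.171). With 4 livers against 4, no exact p can fall below 0.0286. A single test at that p cannot pass once several such tests are adjusted together, as here over 6 measures.

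The other measures of the whole shelf did not pass either. Methylated sites, below 25 in a given liver, made up 60.3% ± 1.83 in lingonberry and 57.9% ± 1.56 in HFD livers, and intermediate sites 31.1% ± 1.48 in lingonberry and 32.9% ± 1.03 in HFD livers (SD, n = 4, exact permutation tests, adjusted p = 0.171 for each). Unmethylated sites made up 8.64% ± 0.91 in lingonberry and 9.23% ± 0.59 in HFD livers (exact permutation test, adjusted p = 0.314). The share without any HpaII tag was 28.01%, 32.8%, 39.7% and 27.7% in lingonberry livers, against 35.4%, 34.4%, 34.8% and 33.6% in HFD livers (exact permutation test, adjusted p = 0.314). Its highest value was in lingonberry liver 3, the shallowest library of that group, and its lowest values were in lingonberry livers 1 and 4, the deepest. The difference was -2.49 percentage points, and 3.03 with all libraries thinned to 1 depth. Counted in HpaII tags alone, shelf sites held 2.42% ± 0.097 of the tags at covered autosomal sites in lingonberry livers and 2.53% ± 0.077 in HFD livers (SD, n = 4, exact permutation test, p = 0.143).

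Divided by position, the shelf showed differences that did not pass. They were -1.15, -1.23, -1.26 and -1.32 from the inner to the outer 500 bp bin (exact permutation tests, adjusted p = 0.143 for each). The inner minus outer difference was 1.37 ± 0.196 in lingonberry livers and 1.199 ± 0.12 in HFD livers (SD, n = 4, exact permutation test, p = 0.229). Next to methylated clusters the diets differed by -1.07, next to intermediate ones by -1.26 and next to unmethylated ones by -1.30 (exact permutation tests, adjusted p = 0.143 for each). Shelf sites with a core on both sides differed by -0.79 and those with a core on 1 side by -1.25 (exact permutation tests, adjusted p = 0.371 and 0.229), a gap of 0.46 (exact permutation test, p = 0.171). On the 19 autosomes the difference ran from -1.85 on chromosome 16 to -0.81 on chromosome 15, and it was negative on all 19, which come from the same livers and share the same shift. None passed (exact permutation tests, adjusted p = 0.167 to 0.314), and lingonberry and HFD livers were separate only on chromosome 6, with 27.1 ± 0.87 and 28.8 ± 0.65. Over 19 tests a single chromosome at the smallest possible p could not pass.

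By local site density, the diets were separate only at sites without a neighbour. Shelf sites with no neighbour (10368) had 20.99, 20.5, 22.4 and 22.6 in lingonberry livers, against 22.8, 24.2, 25.4 and 22.99 in HFD livers. All lingonberry livers lay below all HFD livers, narrowly. The difference was -2.23 ± 0.81 (SE, exact permutation test, p = 0.0286, adjusted p = 0.0857 over 3 strata) and did not pass the correction. Over 3 strata a single one at the smallest possible p could not pass. Sites with 1 neighbour (10672) differed by -1.34 (adjusted p = 0.171) and those with 2 to 4 (11950) by -0.28 (adjusted p = 0.657, exact permutation tests). The last was 31.2 ± 1.10 with lingonberries and 31.4 ± 0.39 without (SD, n = 4). The difference between the outer strata was -9.53 ± 0.76 with lingonberries and -7.59 ± 1.13 without, a gap of -1.94 (exact permutation test, p = 0.0571). Without HFD liver 4 this gap was -2.35, and with cores of at least 10 neighbours -2.47, each past the threshold without correction (exact permutation tests, p = 0.0286). The contrast is the only one of its family, so its p was not adjusted, nor was it adjusted for the settings tried.

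Tags at unmethylated sites also differed between the libraries by local site density. Whether tag yield or methylation sets these values was not tested. At unmethylated sites genome-wide with no neighbour, tags per library tag, relative to the site's mean over the 8 libraries, had a median over sites of 0.846, 0.899, 0.987 and 0.786 in lingonberry livers, against 1.06, 1.12, 1.21 and 0.921 in HFD livers. At those with 10 or more neighbours the median was 1.03, 1.09, 0.965 and 1.06 in lingonberry livers, against 0.987, 0.918, 0.845 and 0.964 in HFD livers. Dividing tags by these factors turned the difference at shelf sites with no neighbour from -2.23 to 0.53 ± 1.03 (SE, exact permutation test, adjusted p = 0.714). The gap between the outer strata turned to 1.03 ± 0.51 (SE, exact permutation test, adjusted p = 0.0857). The factors come from the same livers and remove any change shared by unmethylated sites of like density as well. In the lingonberry group the depth was also higher in 3 of 4 libraries than in any HFD library.

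**Figure D4:**
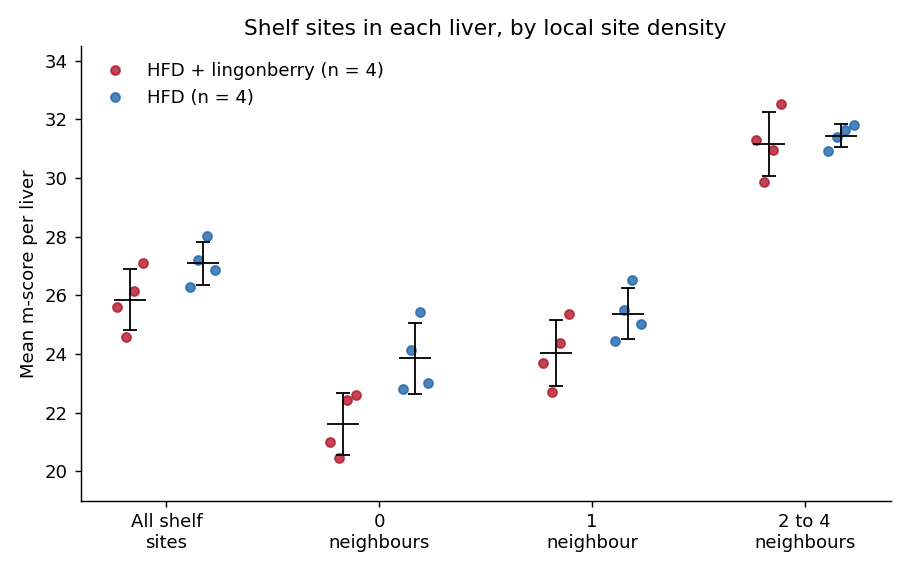
Mean m-score of shelf sites in each liver (points), for all shelf sites and by how many other sites lay within 500 bp, in lingonberry livers (red, left of each pair) and HFD livers (blue, right), with the mean and SD of 4 livers in black. The vertical axis begins at 19. The groups are separate for sites with 0 neighbours, 20.5 to 22.6 against 22.8 to 25.4, and overlap in the other 3 columns.

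Differences between shelf and surroundings were set against diet as well, and none passed after adjustment, where with 4 contrasts a single one at the smallest possible p could not pass. The shelf minus open sea difference was 6.04 ± 0.75 with lingonberries and 5.24 ± 0.32 without, a gap of 0.80 ± 0.41 (SE, exact permutation test, p = 0.0571, adjusted p = 0.229 over 4 contrasts). It ranged from 0.44 without lingonberry liver 4 to 1.03 without lingonberry liver 2 (exact permutation tests, p = 0.143 and 0.0286, adjusted p = 0.371 and 0.114). With the same mix of neighbour numbers the gap was 0.50 ± 0.35 (adjusted p = 0.229). The shelf minus shore difference was -16.7 ± 0.39 and -16.2 ± 0.36, a gap of -0.50 ± 0.27, and 0.21 ± 0.16 with the same mix (exact permutation tests, adjusted p = 0.229 for each). At equal neighbour number the diet differences in shelf, shore and open sea were close. With no neighbour they were -2.23, -2.57 and -2.83, and with 4 neighbours 0.62, 0.34 and 0.047.

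**Figure D5:**
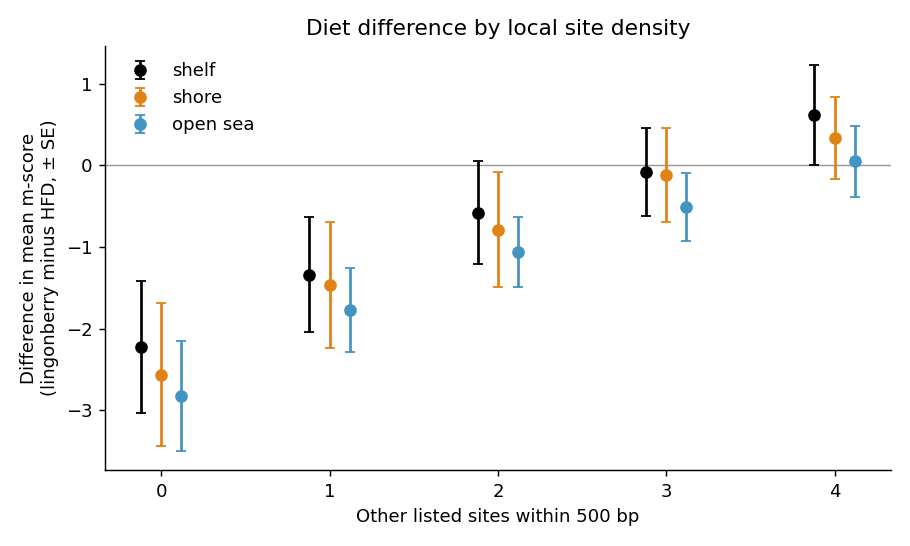
Difference in mean m-score, lingonberry minus HFD, with its SE over 4 livers a group, against how many other sites lay within 500 bp, for shelf (black), shore (orange) and open sea sites (blue). In all 3 classes the difference lies between -2.83 and -2.23 at sites with 0 neighbours and between 0.047 and 0.62 at sites with 4.

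No shelf unit differed between the diets past the threshold. Of the 4198 shelf units 0 passed at an adjusted p below 0.05, and the percentage called over all 26655 shelf, shore and core units was 0 as well (limma). At an unadjusted p below 0.05 there were 288 shelf units, 6.86%, where the percentage over all units was 7.92. Of these 92 (2.19%) were higher with lingonberries, where the percentage over all units was 5.81, and 196 (4.67%) were lower, where it was 2.11. Core units, which are denser, made up 12929 of all units, and no percentage was taken over shore units alone. The median difference over shelf units was -0.58, beside -0.23 over shore units and 1.83 over core units, with a median SE of 3.68 per shelf unit. The smallest adjusted p of a shelf unit was 0.203, and 2378 units (56.6%) had a lower mean with lingonberries.

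The unit with the smallest p among those higher with lingonberries, at a mean of at least 10 tags, was on chromosome 11 from 114647648 to 114648067 (4 sites). It had 72.7, 70.998, 72.9 and 73.4 in lingonberry livers, against 64.6, 64.9, 57.1 and 65.4 in HFD livers. The groups were separate, with a difference of 9.49 ± 2.24 (SE, limma, adjusted p = 0.626). On chromosome 13 from 54894094 to 54894680 (5 sites) the values were 75.8, 74.8, 76.6 and 74.4 in lingonberry livers, against 59.1, 69.1, 66.3 and 70.7 in HFD livers (limma, adjusted p = 0.626). In the other direction, the unit on chromosome 5 from 116018597 to 116019536 (5 sites) had 63.2, 63.9, 64.1 and 66.1 in lingonberry livers, against 69.8, 76.8, 68.9 and 73.9 in HFD livers. Its difference was -8.02 ± 2.17 (SE, limma, adjusted p = 0.626). On chromosome 4 from 133225764 to 133226053 (3 sites) the levels were 76.3, 76.1, 76.2 and 75.8 in lingonberry livers, against 82.1, 84.2, 77.8 and 79.6 in HFD livers (limma, adjusted p = 0.626). These 4 units show separate groups, and none is a call. The other 16 named units, 8 in each direction, had differences from 4.07 to 13.2 and from -13.6 to -6.02, each with a limma adjusted p of 0.626.

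At single sites, 4 of 32990 shelf sites passed, all lower with lingonberries, where the percentage called over all 1310003 sites was 0.0134 (limma, adjusted p below 0.05), or 0.00947 for lower sites. That is 0.0121% of shelf sites, near the background, and no shelf site passed as higher, where the percentage was 0.00397. At an unadjusted p below 0.05 there were 1532 shelf sites (4.64%, percentage over all sites 4.17), of which 585 (1.77%, over all sites 1.63) were higher and 947 (2.87%, over all sites 2.54) lower with lingonberries. The 4 sites were on chromosome 6 at 12703403, chromosome 3 at 82935171, chromosome 11 at 117746487 and chromosome 2 at 71045931 (mm9). Each had no tag in any lingonberry liver and 1 tag in each HFD liver, 4 tags in all. On chromosome 6 the m-score was 0 in the lingonberry livers, against 8.37, 9.02, 10.01 and 7.93 in HFD livers (limma, adjusted p = 0.00611). On chromosome 2 it was 0, against 14.7, 15.8, 17.5 and 13.9 (limma, adjusted p = 0.0272). A single tag per library at close depths gives nearly equal scores, which is the spread these tests rest on. None of the 6015 shelf sites with a mean of at least 10 tags passed, where the percentage called over the 223697 such sites was 0 (limma). At an unadjusted p below 0.05 there were 299 of them (4.97%, percentage over all such sites 5.11). Nor did any pass once sites without a tag in all livers were left out (limma, 983 of 30479 at an unadjusted p below 0.05, or 3.23%, where the percentage over all such sites was 3.94).

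The other 16 sites of smallest p did not pass. Of the 10 that were higher with lingonberries, 9 had no tag in any HFD liver and 5 to 9 tags in all in lingonberry livers (limma, adjusted p = 0.242 to 0.760). The remaining one, on chromosome 13 at 51506612, had 62.8, 64.9, 67.3 and 58.8 in lingonberry livers, against 23.4, 25.04, 27.5 and 40.1 in HFD livers (limma, adjusted p = 0.275), on 24 and 5 tags in all. Among the 6 that were lower, the site with most tags, on chromosome 1 at 9961539, had 69.96, 69.1, 71.3 and 72.9 in lingonberry livers, against 81.5, 85.4, 81.7 and 79.0 in HFD livers (limma, adjusted p = 0.503), on 95 and 103 tags. The groups were separate at both sites.

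The count of shelf sites that passed changed with single libraries. It was 19 without lingonberry liver 3, of which 15 were higher, and 20, 16, 11 and 14 without HFD liver 1, 2, 3 and 4. Without lingonberry liver 1, 2 or 4 it was 5, 6 and 4. The percentage over all sites moved alongside. It was 0.0534 without lingonberry liver 3, where the shelf had 0.0576. Without HFD liver 1, 2, 3 and 4 it was 0.0501, 0.0424, 0.0452 and 0.0489, where the shelf had 0.0606, 0.0485, 0.0333 and 0.0424. Without lingonberry liver 1, 2 and 4 it was 0.0277, 0.0221 and 0.0165, where the shelf had 0.0152, 0.0182 and 0.0121. Of 22759 windows of 1 kb that held a shelf site, 1 passed, where the percentage called over all 831003 windows was 0.0154 (limma). At an unadjusted p below 0.05 there were 1064 such windows (4.68%, percentage over all windows 4.44). That window, on chromosome 6 from 12703001 to 12704000, contains only the site named above. The count of windows was 3, 5, 9 and 0 without lingonberry liver 1, 2, 3 and 4, and 11, 7, 7 and 6 without HFD liver 1, 2, 3 and 4. Over all windows the counts were 257, 243, 451 and 186 without a lingonberry liver and 423, 387, 406 and 431 without an HFD liver, or 0.0224% to 0.0543%, where windows with a shelf site had 0% to 0.0483%.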

How the data were processed

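Each deposited file holds 1 liver and, per the file headers, lists sites by chromosome and position with an m-score, a score from 0 to 100, and conf, used as a signal that is never negative. The submitters' processing notes name the build mm9 and CASAVA. The sources used here name neither filters nor the origin of the MspI values. Per the labels' protocols, HpaII digestion was followed by EcoP15I tagging and PCR, and molecular identifiers are not mentioned, so tags are not independent molecules.

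The deposited m-score was found to act as the angle, and conf as the length, of the vector of HpaII and scaled MspI tags. HpaII tags (conf times the sine) were whole, within 0.02, at 96.1% to 97.01% of sites above 0. MspI tags were the cosine part over its commonest value at sites with m-score 0, taken as the median of 8 files. Neighbours and distances used all listed sites. As the values are scores, limma 3.58.1 (R 4.3.3, empirical Bayes with a mean trend, adjusted by Benjamini-Hochberg over all features) was used in place of a count model, and was tested on simulated data. Class means were compared with exact permutation tests over 70 assignments. Shore sites lie 1 to 2000 bp from a core. The members, lists and tests were chosen with earlier results of these data known, and the within-liver comparisons were added after seeing the data. Units named are the 10 of smallest p in each direction with a mean of at least 10 tags, the 5 with most sites and the 5 highest and 5 lowest. Sites named are the 10 of smallest adjusted p in each direction, those without a tag in 1 diet given together. Gene lists and markers were not used, as no mm9 annotation was. Exact permutation p-values rest on the spread between these livers, and those of limma also draw on the variance of all features fitted.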

Additional observations from a re-analysis of the deposited data

Results flagged for a closer look

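The share of shelf sites with an intermediate m-score, from 25 to 75, was 30.3%, 30.1% and 30.6% in lingonberry livers 1 to 3 and 33.3% in lingonberry liver 4, which stood apart from the other 3, against 31.7%, 32.9%, 34.2% and 32.6% in HFD livers. It was the only such sample among 92 groups of 4 values examined by Dixon's test. Chance flags about 1 group in 20, and 1 in 92 is below that rate. Lingonberry liver 4 had 10215066 HpaII tags, between the other lingonberry libraries, and the part of depth in its value was not tested.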

How the results depend on the processing

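Within livers, the shelf's place between shore and open sea kept its direction and its call under each alternative tried, while its height above the open sea reached 9.50 with cores of at least 10 neighbours. Several differences between diets turned in sign, and 3 passed under an alternative, as given here. For each of these 3 results the contrast is the only one of its family. Its adjusted p is thus the exact permutation p of 0.0286, with no correction, also not for the settings tried. With a minimum of 50 MspI tags the share of unmethylated shelf sites differed by 0.84 percentage points, sites with 2 to 4 neighbours by 0.29, sites with a core on both sides by 0.28, and the unmethylated minus methylated cluster contrast by 0.10. With cores of at least 10 neighbours the inner minus outer contrast was -0.11, the cluster contrast 0.60, and the 0 minus 2 to 4 neighbours contrast -2.47, now past the threshold. A within-liver comparison over both diets, which is not a diet difference, moved as well. Methylated-cluster shelves minus open sea gave 0.72 with a minimum of 1 MspI tag and -0.58 with 50 tags. It was -2.32 with cores of at least 10 neighbours. Each was past the threshold (exact permutation tests, adjusted p = 0.0156, 0.03125 and 0.00781), the first in the opposite direction. Between the diets, thinning gave 3.03 for the share without a tag. With density factors, the share of unmethylated sites differed by 0.15, the share of tags by 0.058, sites with no neighbour by 0.53, their contrast with 2 to 4 neighbours by 1.03, the cluster contrast by 0.15 and shelf minus shore by 0.24. Factors from summed tags, which a few sites can lead and which were added after seeing the data, gave 0.13 for all shelf sites and 1.27 for those with no neighbour. On log2 tags per 1000000, sites with 2 to 4 neighbours differed by 0.034 and the cluster contrast by 0.037, which passed in the reversed direction (exact permutation test, adjusted p = 0.0286). Counts of shelf sites and of windows with a shelf site were 0 (limma) when features without a tag were left out. The percentage called over all such features was 0 for sites and 0.00755 for windows. Counts were also 0 for windows of at least 3 sites and for sites averaging at least 10 tags. There the percentage over all such features was 0 as well. Leaving out 1 liver gave -2.35 to -1.48 for the 0 minus 2 to 4 neighbours contrast between diets. This contrast passed without HFD liver 4 (exact permutation test, adjusted p = 0.0286). For 2 to 4 neighbours the diet difference ran from -0.74 to 0.15. The counts ran from 4 to 20 shelf sites and from 0 to 11 windows. Within livers, methylated-cluster shelves minus open sea ran from -0.22 to 0.065. No paired analysis was possible because the labels give no number shared between the diets. With 1 to 3 tags at the median shelf site, single sites are limited by depth.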

Other observations

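Among shelf sites with a mean of at least 10 tags, a set chosen once values were known, the lowest unadjusted p for a lower m-score belonged to the site on chromosome 11 at 113470855, with 63.3 ± 11.3 in lingonberry livers and 86.6 ± 3.19 in HFD livers (SD, n = 4, limma adjusted p = 0.875). For a higher m-score it was the site on chromosome 12 at 113390022, with 85.3 ± 4.01 in lingonberry livers and 66.8 ± 8.89 in HFD livers (SD, n = 4, limma adjusted p = 0.875). Neither passed.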
